A study of Mus musculus with 4 samples.

Results

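Interferon-responding Foxp3-negative CD4 T cells were studied in single-cell libraries of sorted CD4 T cells from C57BL/6 mouse lung. A cell was counted as interferon-responding when it had no UMI (unique molecular identifier, the count of 1 captured RNA molecule) of Foxp3, the transcription factor that marks regulatory T cells, and at least 3 UMIs summed over Ifit1, Ifit3, Ifit3b, Rsad2, Usp18 and Oasl1. By this rule the tumor library held 533 members and the normal library 68, together 601 cells of 15533 deposited barcodes. Members were compared with reference cells of the same library, the Foxp3-negative cells with 0 UMIs of the 6 genes, which numbered 4465 (tumor) and 6352 (normal). A further 990 tumor and 456 normal Foxp3-negative cells had 1 or 2 of these UMIs and belonged to neither group. The tumor library came from lungs of mice that had received TC1 cells, a transplantable mouse lung tumor line, into the tail vein 3 weeks earlier. The normal library came from lungs of age-matched mice without tumor cells. The cells of both groups were enriched magnetically and sorted as live CD4-stained cells, and each suspension gave 1 gene expression library and 1 T cell receptor library. The labels do not give the number of mice per suspension, so with 1 library per tissue there was no test and no replicate check, and batch and tissue cannot be told apart. All differences are described with intervals at 95% that cover counting error only and treat UMIs of 1 cell, and cells of 1 clone, as independent, which they are not.

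Type I interferons bind the receptor made of IFNAR1 and IFNAR2, whose kinases JAK1 and TYK2 activate transcription factors. A complex that includes STAT2 and IRF9 then binds interferon-stimulated response elements and switches on antiviral genes. Interferon-gamma acts through a separate receptor, and many target genes answer to both kinds of interferon, so the measured transcripts do not name the ligand. In T cells, interferon signals are known to shape priming, survival, trafficking and exhaustion.

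The 6 genes of the rule cover several arms of this response. Ifit1, Ifit3 and Ifit3b encode tetratricopeptide proteins that bind viral RNA, and Rsad2 encodes viperin, an enzyme that makes a chain-terminating nucleotide. Usp18 removes ISG15 from proteins and dampens IFNAR signalling, and Oasl1 belongs to the oligoadenylate synthetase-like family. In GRCm38.p6 the Ifit genes lie together on chromosome 19, with Ifit3 at chr19:34583119-34588982, Ifit3b at chr19:34607530-34613403 and Ifit1 at chr19:34640889-34650009. Oasl1 lies at chr5:114923143-114937911, Rsad2 at chr12:26442743-26456452 and Usp18 at chr6:121245906-121270917. In members Ifit1 had 1822 UMIs for tumor and 163 for normal, Ifit3 had 1642 and 81, and Ifit3b had 401 and 21. Rsad2 had 655 UMIs in tumor members and 65 in normal members, Usp18 had 473 and 45, and Oasl1 had 195 and 33. These values chose the cells and are given as a description. Reads of Ifit3 and Ifit3b, which are near-identical copies, may have been split between them.

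Some promoters of the rule genes and of other genes higher in members hold letters of the kind that interferon complexes are known to bind, and a few windows with a match are printed to show them. RefSeq promoter windows of GRCm38.p6, from 250 bases before to 50 after a transcript start, were searched on both strands for a pair of GAAA with any 2 bases between, a response-element-like pattern that reads as a pair of TTTC on the other strand. Capitals mark the matches, with the 2 bases between included.
Ifit1, chr19:34640770-34640828, plus strand: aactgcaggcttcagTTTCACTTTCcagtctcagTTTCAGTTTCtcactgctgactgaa
Ifit3, chr19:34583363-34583392, plus strand: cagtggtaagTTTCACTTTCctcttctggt
Ifit3b, chr19:34607759-34607788, plus strand: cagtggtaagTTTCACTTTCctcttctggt
Rsad2, chr12:26456548-26456587, minus strand: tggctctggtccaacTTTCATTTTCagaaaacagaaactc
Isg15, chr4:156200860-156200911, minus strand: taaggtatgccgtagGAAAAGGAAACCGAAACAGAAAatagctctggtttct
Oas3, chr5:120777710-120777749, minus strand: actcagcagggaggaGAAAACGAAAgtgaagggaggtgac
Gbp2, chr3:142620589-142620628, plus strand: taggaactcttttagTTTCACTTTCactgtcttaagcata
The pattern was present in 4 of the 5 rule genes that had a window, and in 3.44% of all 32851 windows. Matches in the Isg15 window overlap one another. The Ifit3 and Ifit3b stretches are identical and lie inside the span of another annotated transcript of each gene. A match is a description of letters and not a measured binding site.

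T cell genes were present throughout the members. Every member in both libraries had at least 1 UMI of the CD4 T cell markers, which include Cd3d, Cd3e, Cd4 and Trac. Their summed level was 5524 CPM (counts per group scaled to a total of 1000000 UMIs) in tumor members and 4966 CPM in tumor reference cells, and 5749 CPM in normal members and 5127 CPM in normal reference cells. The 10 myeloid markers summed to 5.07 CPM in tumor members and 7.42 CPM in tumor reference cells, and to 6.35 and 5.50 CPM in normal members and reference cells, with Lyz2 at 0 in members of both. The 7 B cell markers summed to 130 CPM in tumor members and 143 CPM in tumor reference cells, and to 136 and 156 CPM in normal members and reference cells, with 322 of the 332 UMIs in tumor members from Ighm, the immunoglobulin mu gene. The 5 gamma-delta T cell markers were higher in tumor members, at 8.58 CPM against 4.08 CPM in tumor reference cells, and were at 0 in normal members and 2.45 CPM in normal reference cells. The 10 dendritic cell markers were also higher, at 31.2 CPM in tumor members and 10.6 CPM in tumor reference cells, and 22.2 and 6.19 CPM in normal members and reference cells. Of the 80 UMIs in tumor members 56 came from Irf8, an interferon-inducible transcription factor, and 6 of the 10 markers, among them Siglech, were at 0. The part of these cells in the results was not tested.

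Median depth was 4407 UMIs in tumor members and 4070 in tumor reference cells, and 4068.5 and 3885.5 in normal members and reference cells. The summed UMIs behind the comparisons were 2562798 in tumor members and 18860580 in tumor reference cells, but 315032 in normal members and 24897609 in normal reference cells, so values of normal members are the least precise. The tumor and normal libraries shared 86 barcodes, 74 of them among kept cells, and 6 members had a barcode that was also kept in the other library.

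In the tumor library 8.90% of Foxp3-negative cells were members (8.19 to 9.65), against 0.989% in the normal library (0.769 to 1.25). The tumor share was 9.0 times the normal share. Because deeper cells reach 3 UMIs more easily, cells were also thinned to 2417 UMIs each, with 325 tumor and 695 normal shallower cells left out. Thinned shares were 5.77% in tumor cells and 0.566% in normal cells, a ratio of 10.2. With cells split by depth into 3 groups of equal size, from shallow to deep, tumor shares were 7.71%, 7.07% and 11.9%, and normal shares were 0.741%, 0.960% and 1.27%. The tumor library was thus above the normal library in each of the 3 depth groups.

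The count of rule-gene UMIs ran on without a gap across the threshold, so members are a range of a continuous measure. In tumor cells 769 had 1 UMI, 221 had 2, 120 had 3 and 71 had 4, and single tumor members reached 84 UMIs. The median tumor member had 6 rule-gene UMIs and the median normal member 4. At least 2 of the 6 genes were detected in 93.1% of tumor members and 91.2% of normal members, and all 6 in 30 tumor and 2 normal members. Isg15, which the rule did not use, was at 452 CPM in tumor cells with 3 UMIs and 216 CPM in those with 2. In normal cells it was at 457 CPM with 3 UMIs and 254 CPM with 2. Cells just below the threshold thus carried part of the same signal.

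**Figure D1:**
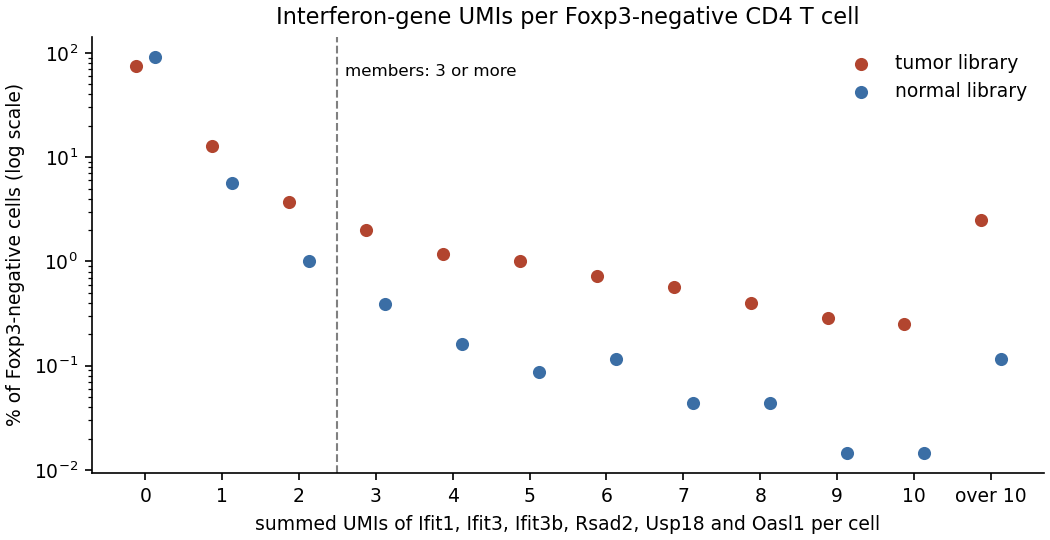
Share of Foxp3-negative cells (percent, log axis) by summed UMIs of the 6 rule genes per cell, in the tumor library (red) and the normal library (blue), with the dashed line at the threshold of 3 UMIs. Up to 10 UMIs the shares mostly fall away, without a gap at the threshold, and tumor points lie above normal points at each count of 1 or more. The last point pools all cells with over 10 UMIs and stands above the point at 10 in both libraries.

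Members differed from reference cells mainly by higher genes. A gene was tested when members had at least 20 UMIs or were expected to have them from the reference level. It was counted when its CPM differed at least 2-fold. A gene could thus enter through its member count alone. Genes of low reference level could enter only when higher in members, above all in the normal library with its fewer member UMIs. Counts of higher genes, those of the gene lists included, are therefore partly fixed by the filter. Among tumor cells 470 of 7938 genes were 2-fold higher in members (5.92%) and 57 were 2-fold lower (0.718%). Among normal cells 88 of 2242 genes were 2-fold higher (3.93%) and 7 were 2-fold lower (0.312%). Of the 2242 genes tested in both libraries, 80 were 2-fold higher in both (3.57%) and 0 were 2-fold lower in both (0%). These counts moved with the depth allowed: 41 were higher in thinned cells and 41 with a minimum of 50 UMIs, while a minimum of 5 UMIs gave 160 higher and 5 lower. The median log2 ratio over all tested genes was 0.06 in each library. The 6 rule genes and Foxp3 were left out of these counts. Of the 80 genes, 55 stood on 11 interferon-linked lists chosen with results of these data known. The share of list genes among all 2242 tested genes was not counted, so the 55 are a description and not a measure of enrichment.

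Among the 12 genes with the highest ratio in both libraries, Cmpk2, a mitochondrial nucleotide kinase gene that neighbours Rsad2, was at 128 CPM in tumor members and 4.98 CPM in tumor reference cells, a 25.8-fold difference (20.4 to 32.7). Its normal values were 88.9 and 3.01 CPM, 29.5-fold (18.4 to 46.1). Isg15, the ubiquitin-like modifier, was at 1189 CPM in tumor members and 61.4 CPM in tumor reference cells, 19.4-fold (18.1 to 20.7). Its normal values were 679 and 43.5 CPM, 15.6-fold (13.4 to 18.1). The oligoadenylate synthetases, which activate the RNA-degrading enzyme RNase L, were Oas3 at 21.5-fold in tumor and 19.4-fold in normal members, Oas1a at 15.1-fold and 18.4-fold, and the related Oasl2 at 13.1-fold and 15.1-fold. Isg20, an exonuclease gene, was 17.4-fold higher in tumor members and 15.8-fold higher in normal members. Rtp4, which encodes a negative regulator of the antiviral response, was 7.70-fold higher in tumor members (7.05 to 8.41) and 19.03-fold higher in normal members (15.3 to 23.5), with 52.4 CPM in tumor reference cells and 18.5 CPM in normal reference cells. The member levels of Rtp4 were close, 403 CPM in tumor and 352 CPM in normal members, and the gap between the libraries lay mainly in the reference cells. The other 5 of the 12 were Slfn5, Dhx58, Phf11c, Eif2ak2 and Xaf1, with ratios of 7.53 to 12.1 in the tumor library and 8.25 to 16.3 in the normal library.

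**Figure D2:**
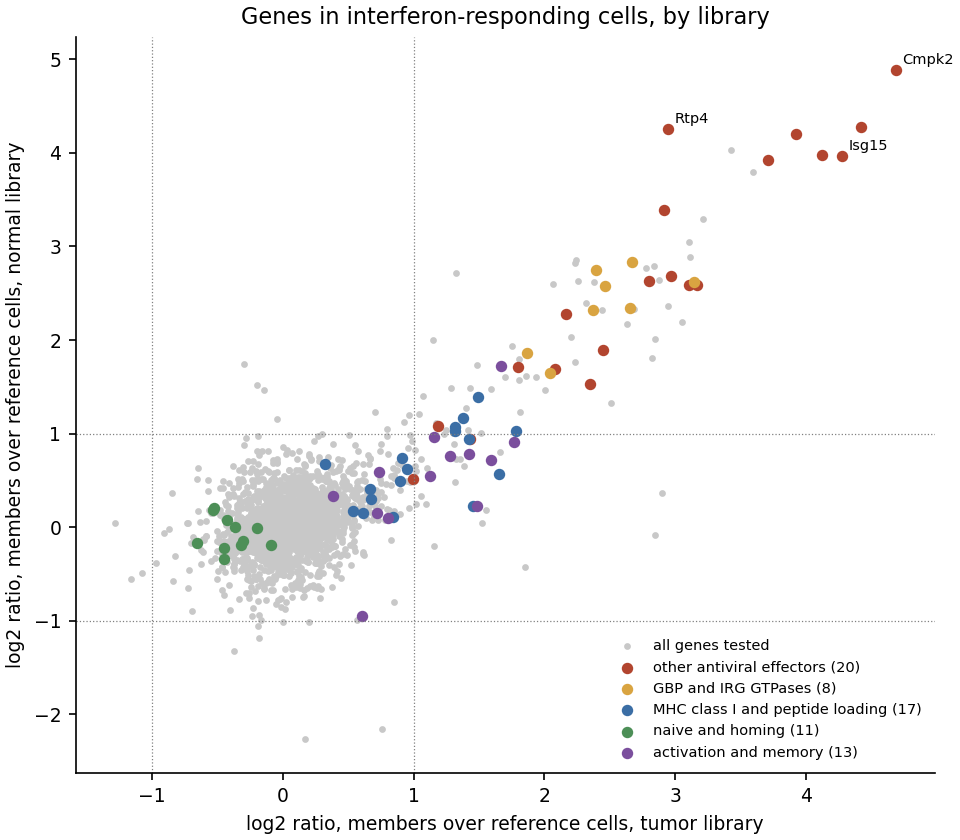
Log2 ratio of CPM, members over reference cells, in the tumor library (x axis) and the normal library (y axis) for the 2242 genes tested in both, with 5 gene lists coloured and dotted lines at 2-fold. The antiviral effectors and GTPases stretch towards the upper right, with Cmpk2 at 4.69 and 4.88, while naive and homing genes lie within 2-fold of 0.

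Transcription factor genes of the pathway were higher, and the genes of its receptor chains and of Jak1 were within 2-fold of the reference. Stat2 was 6.24-fold higher in tumor members and Irf9 2.21-fold, and Irf9 was 3.99-fold higher in normal members. Irf7, the factor that amplifies interferon production, was 6.84-fold higher in tumor members (6.47 to 7.22) and 6.81-fold in normal members (5.88 to 7.85). These ratios exceed those of the receptor chain Ifnar1, at 1.21 in the tumor library and 1.69 for normal cells, of Ifnar2 at 1.35 in the tumor library, and of Jak1 at 0.861 and 0.855. Irf1, a factor that responds strongly to interferon-gamma, was at 408 CPM in tumor members and 342 CPM in tumor reference cells, a ratio of 1.19 (1.12 to 1.27). Socs1, a feedback inhibitor of JAK kinases, had ratios of 1.30 in the tumor library and 1.86 for normal cells. Of the 18 signalling genes tested in the tumor library 6 were 2-fold higher, and of 10 in the normal library 3 were, with medians of 0.44 and 0.51 on the log2 scale.

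Interferon genes themselves had few UMIs in members. Of 16 listed interferon genes of all types only Ifng passed the filter, in the tumor library, with 80 UMIs in members and 112 in the more numerous reference cells, 31.2 and 5.94 CPM. Of the 533 tumor members 37 had an Ifng UMI and 10 cells held 55.0% of them. Ifnb1 had 0 UMIs in members of both libraries.

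Other antiviral effectors were higher as a group. In tumor members 27 of 28 tested effectors were 2-fold higher, with a median log2 ratio of 3.1, and in the normal library 18 of 20, with a median of 2.61, against 0.06 for all tested genes. Bst2, which encodes tetherin, was at 862 CPM in tumor members and 110 CPM in tumor reference cells, and at 476 and 74.3 CPM in normal members and reference cells. Ifit2 was 8.98-fold higher in tumor members and 6.02-fold higher in normal members. Mx1, a dynamin-like GTPase gene that carries a disabling lesion in C57BL/6 mice, had 378 UMIs in tumor members and 19 in tumor reference cells, 147 and 1.01 CPM (ratio 146, 92.5 to 246). In the normal library Mx1 had 9 UMIs in members and 13 in reference cells, under the filter. Its UMIs were found in 155 of 533 tumor members and 4 of 68 normal members.

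Most tested sensors of foreign nucleic acid were higher. The RNA helicase genes Ddx58 (RIG-I), Ifih1 (MDA5) and Dhx58 (LGP2) were 4.19-fold, 10.3-fold and 10.8-fold higher in tumor members. Normal members had Ddx58 at 6.07-fold higher (4.64 to 7.82) and Dhx58 at 16.3-fold higher (10.3 to 24.8). Zbp1, which senses Z-form nucleic acid, was at 558 CPM in tumor members and 64.6 CPM in tumor reference cells, and at 317 and 43.0 CPM in normal members and reference cells. Among the DNA-sensing arm, Tmem173 (STING) was 2.16-fold higher in tumor members and Aim2 1.74-fold, and Mavs, the adaptor of the helicases, had a ratio of 1.07. In all, 7 of 9 tested sensors were 2-fold higher in the tumor library and 4 of 4 for normal cells. The filter partly fixed the normal count: Dhx58, at 5.26 CPM in normal reference cells, could enter only when far above 2-fold higher.

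The machinery that attaches ISG15 to proteins was higher along its whole path. Uba7 (the E1 enzyme) was 3.49-fold higher in tumor members and 2.97-fold in normal members. Ube2l6 (the E2 enzyme) was at 158 CPM in tumor members and 4.24 CPM in tumor reference cells, 37.3-fold (29.2 to 48.0). Herc6, the main ISG15 ligase gene of the mouse, was 7.71-fold higher in tumor members and 5.13-fold in normal members. With Isg15 and Trim25, 5 of 5 genes were 2-fold higher in the tumor library and 4 of 4 tested in the normal library, where Ube2l6 was under the filter. Of the ADP-ribosyltransferase list, 6 of 7 genes were 2-fold higher in the tumor library and 4 of 5 for normal cells. Zc3hav1, the zinc finger antiviral protein, was the exception in both, with ratios of 1.21 and 1.13.

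Guanylate-binding proteins and immunity-related GTPases, which attack membranes around intracellular pathogens and respond strongly to interferon-gamma, were also higher. All 16 tested in the tumor library and all 8 tested in the normal library were at least 2-fold higher, with medians of 2.58 and 2.46 on the log2 scale. The normal count is partly fixed by the filter, since a gene as low in normal reference cells as Gbp2 could enter only when over 2-fold higher. Gbp8, 1.97-fold higher in normal members from 14 UMIs, was under the filter there. Gbp2 was at 255 CPM in tumor members and 28.9 CPM in tumor reference cells, 8.82-fold (7.86 to 9.90). The normal values of Gbp2 were 171 and 27.8 CPM, 6.17-fold (4.59 to 8.14). Iigp1 was 16.6-fold higher in tumor members (13.0 to 21.5), and Igtp was 3.65-fold higher in tumor and 3.63-fold higher in normal members. Reads of close paralogs in this family, in the Oas, Ifi20x and H2 families and in Tgtp1 and Tgtp2 may have been split between copies. Over the 80 genes higher in both libraries the GAAA pair was present in the promoter of 25 of the 65 with a window (38.5%), and over the other genes tested in both libraries of 4.17% of 1702. Genes of low reference level could enter only when higher in members, so the filter shaped both sets of genes. These shares are therefore a description and not a measure of enrichment.

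**Figure D3:**
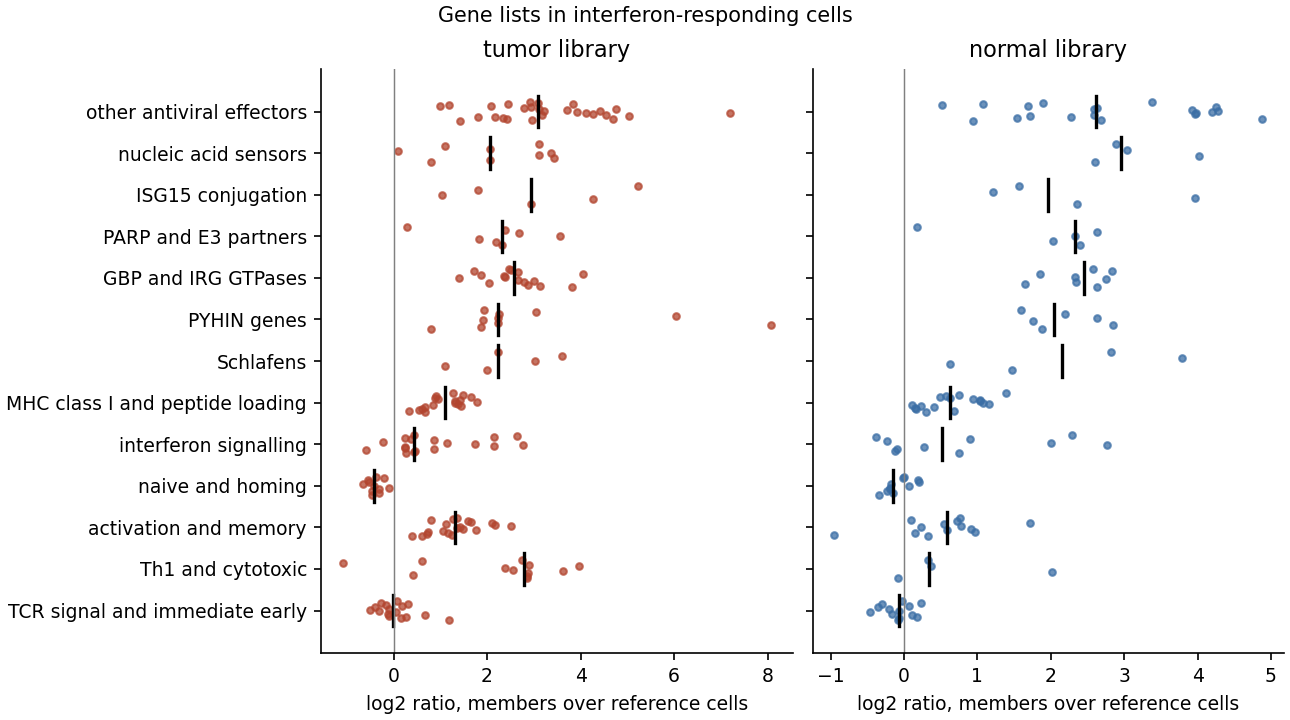
Log2 ratio of CPM, members over reference cells, for each tested gene of 13 lists in the tumor library (left, red) and the normal library (right, blue), with a bar at each list's median and the rule genes left out. The interferon-linked lists have medians right of 0 in both panels, while the T helper 1 and cytotoxic list has a median of 2.80 over 12 genes in the tumor library and 0.35 over 4 genes for normal cells.

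PYHIN genes, a family of nuclear and cytosolic DNA-binding proteins, were 2-fold higher in 9 of 10 cases in the tumor library and 6 of 6 for normal cells. Ifi204 had 110 UMIs in tumor members and 3 in tumor reference cells, a ratio of 270 (90.0 to 1329), and 0 UMIs in normal members. Ifi213 was 4.77-fold higher in tumor members and 6.21-fold higher in normal members. Schlafens, a family linked to T cell quiescence, were 2-fold higher in 5 of 5 cases in the tumor library and 3 of 4 for normal cells. Slfn5 was at 247 CPM in tumor members and 20.4 CPM in tumor reference cells, and at 184 and 13.3 CPM in normal members and reference cells. Slfn2, which maintains quiescence in mouse T cells, had ratios of 2.15 in the tumor library and 1.55 for normal cells.

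Antigen presentation genes were higher by less. Of 18 class I and peptide-loading genes 9 were 2-fold higher in the tumor library, with a median log2 ratio of 1.11, and 5 of 17 in the normal library, with a median of 0.63. The immunoproteasome subunit gene Psmb10 was 3.44-fold higher in tumor members (3.14 to 3.75) and 2.04-fold higher in normal members (1.51 to 2.70). Tap1, a subunit of the peptide transporter, was 3.14-fold higher in tumor members (2.90 to 3.41) and 1.48-fold in normal members (1.08 to 1.99). H2-K1, the classical class I gene, was at 3944 CPM in tumor members and 2578 CPM in tumor reference cells, 1.53-fold, and at 3216 and 2886 CPM in the normal library, 1.11-fold.

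Of the Ifitm and Ly6 genes 5 of 7 tested were 2-fold higher in tumor members and 1 of 3 in normal members. Ly6a (Sca-1) was at 1227 CPM in tumor members and 226 CPM in tumor reference cells, 5.43-fold, and at 571 and 114 CPM in normal members and reference cells, 5.01-fold. Ifitm3, which blocks virus entry at endosomes, had 725 UMIs in 115 tumor members, 283 CPM against 8.17 CPM in tumor reference cells. In normal members Ifitm3 had 8 UMIs in 4 cells, 25.4 CPM against 1.00 CPM in normal reference cells. Cxcl10, the chemokine that attracts CXCR3-bearing cells, was at 276 CPM in tumor members and 6.68 CPM in tumor reference cells, 41.3-fold (34.1 to 50.3). In normal members it was at 47.6 CPM against 4.14 CPM in reference cells, from 15 UMIs. Just 10 tumor cells held 51.1% of the Cxcl10 UMIs of members, whereas 10 cells held 12.4% of those of Isg15. The Cxcl10 level was thus set by few cells, and the Isg15 level by many.

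Some levels climbed steeply with the count of rule-gene UMIs. In tumor cells with 0, 1 to 2, 3 to 4, 5 to 9, 10 to 19 and 20 or more of these UMIs, Isg15 stood at 61.4, 150, 531, 784, 1556 and 3438 CPM. Cxcl10 stood at 6.68, 22.4, 48.4, 64.8, 342 and 1343 CPM in the same cells, so most of its climb came above 10 UMIs. Ccr7, the lymph node homing receptor, stood at 1034, 1005, 924, 874, 942 and 329 CPM. The uppermost range of the tumor library held 59 cells, and 67.8% of them were in the effector range described next, against 26.2% of cells with 3 to 4 UMIs. The upper ranges of the normal library held 6 and 3 cells, too few to read an order.

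**Figure D4:**
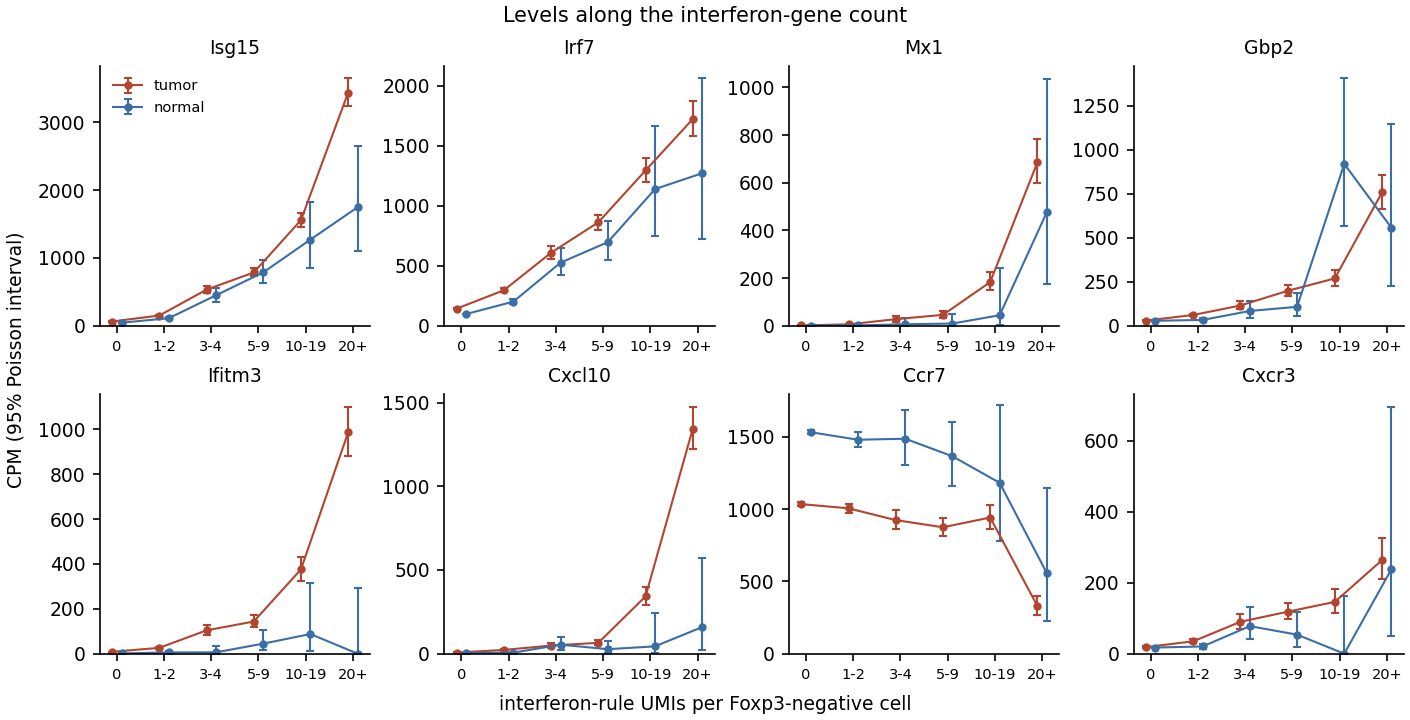
CPM of 8 genes (y axes, each with its own scale) by rule-gene UMIs per Foxp3-negative cell in the tumor library (red) and the normal library (blue), with 95% Poisson intervals. Isg15, Irf7 and Mx1 climb with the count in tumor cells, Ifitm3 and Cxcl10 climb mainly above 10 UMIs, and Ccr7 is lower at 20 or more.

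Tumor members held a higher share of cells with more effector than naive gene UMIs than their reference did. A cell was placed in the effector range when its summed UMIs of 10 effector genes, among them Ccl5, Nkg7, Cxcr3, S100a4 and Icos, exceeded those of 6 naive genes, among them Ccr7, Lef1 and Tcf7, and in the naive range otherwise. This is a range of a score and not a cell type, and 40 of the 533 tumor members lay within 2 UMIs of the limit. In the tumor library 32.5% of members were in the effector range (28.5 to 36.6), against 6.81% of reference cells (6.09 to 7.59). In the normal library 11.8% of members were (5.22 to 21.9), 8 of 68 cells, against 6.16% of reference cells (5.58 to 6.77). After thinning the shares were 34.9% of tumor members and 6.88% of tumor reference cells, but 2.86% of normal members, 1 of 35 cells, and 5.98% of normal reference cells. Leaving out cells with more than 1 UMI over 9 genes typical of regulatory T cells, such as Ctla4 and Il2ra, which activated cells share, gave 10.4% of tumor members (7.25 to 14.3) and 1.45% of tumor reference cells (1.08 to 1.90), and 4% of normal members and 4.16% of normal reference cells. The tumor members thus exceeded their reference under each of these settings, while for normal members the order depended on the setting.

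Read the other way, 29.0% of effector-range Foxp3-negative cells in the tumor library were members (25.4 to 32.8) and 6.68% of naive-range cells (6.03 to 7.38). In the normal library the shares were 1.90% of effector-range cells (0.822 to 3.70) and 0.930% of naive-range cells (0.710 to 1.20). The naive range alone had a tumor share 7.18 times the normal share. Among Foxp3-positive cells, 21.6% of tumor cells (19.3 to 24.1) and 1.46% of normal cells, 3 of 206 (0.301 to 4.20), had 3 or more rule-gene UMIs. After thinning these shares were 13.2% of tumor and 1.04% of normal Foxp3-positive cells. Without thinning, Isg15 was at 1483 CPM in the tumor Foxp3-positive cells with 3 or more rule-gene UMIs.

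**Figure D5:**
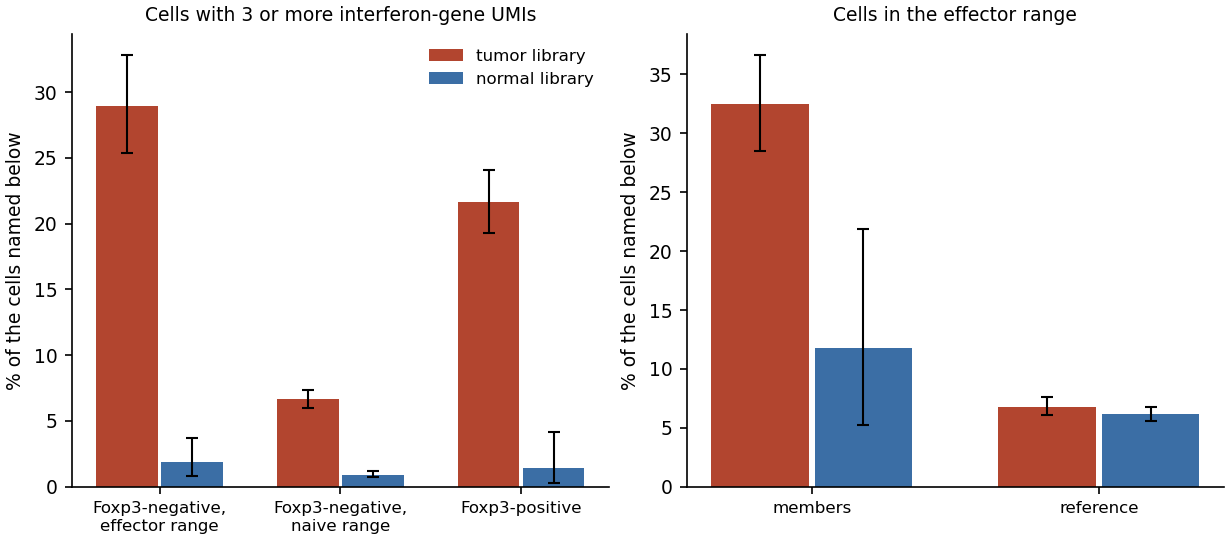
Left, percent of effector-range and naive-range Foxp3-negative cells and of Foxp3-positive cells with 3 or more rule-gene UMIs; right, percent of members and reference cells in the effector range, with tumor (red) left of normal (blue) and 95% Clopper-Pearson intervals. Tumor bars exceed normal bars in each group on the left, and tumor members stand at 32.5% on the right against 6.81% for tumor reference cells.

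Genes of T cell activation were also higher in tumor members. Of 20 activation and memory genes 15 were 2-fold higher in tumor members, with a median log2 ratio of 1.31, and 1 of 13 in normal members, with a median of 0.59. Pdcd1 (PD-1) was at 146 CPM in tumor members and 32.2 CPM in tumor reference cells, 4.53-fold (3.98 to 5.17), and Il2rb, a chain of the IL-2 and IL-15 receptors, was 3.41-fold higher. Of 12 T helper 1 and cytotoxic genes 9 were 2-fold higher in tumor members. Among effector-range tumor cells 2 of 11 were, with a median log2 ratio of 0.63, and among naive-range tumor cells 2 of 5, with a median of 0.38. Of 6 tested T helper 17 genes 4 were 2-fold higher in tumor members, with a median of 1.56. Among effector-range tumor cells 0 of these 6 were higher and 2 were 2-fold lower, with a median of -0.47. Gzmb (granzyme B) was at 138 CPM in tumor members and 11.2 CPM in tumor reference cells, 12.3-fold (10.4 to 14.7), but only 50 of the 533 members had a UMI of it and 10 cells held 65.0% of them. Tbx21 (T-bet) was 6.75-fold higher in tumor members (4.59 to 9.89), from 55 UMIs in 39 of the 533 members, and 10 cells held 45.5% of them. The other 3 of the 12 T helper 1 and cytotoxic genes were Stat4 with a ratio of 1.53 (1.36 to 1.71), Fasl with 1.34 (1.07 to 1.65) and Prf1 (perforin). Prf1 was at 8.58 CPM in tumor members and 18.2 CPM in tumor reference cells. Cxcr3 was 7.19-fold higher in tumor members, of which 132 of 533 had a UMI of it. It was 4.04-fold higher in normal members (2.51 to 6.20), where 6 of 68 cells held all 22 UMIs. Of 9 tested genes typical of regulatory T cells other than Foxp3, 6 were 2-fold higher in tumor members and 1 was 2-fold lower, with a median log2 ratio of 1.16, and 1 of 4 was higher in normal members. Among effector-range tumor cells 0 of 9 of these genes were 2-fold higher and 1 was 2-fold lower, with a median of -0.60. Among naive-range tumor cells 3 of 7 were higher, with a median of 0.65. Regulatory T cells whose Foxp3 RNA was not captured would pass the rule, and their part in these values was not tested. Ccl5 was 7.20-fold higher in tumor members, of which 75 of 533 had a UMI of it and 10 cells held 50.3% of them. In the normal library Ccl5 was at 365 CPM in members and 388 CPM in reference cells, and 4 cells held all 115 UMIs of members.

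Within each range of the tumor library, and in the naive range of the normal library, most antiviral effectors were still higher, and fewer activation genes were. The 8 normal cells of the effector range gave a mixed picture. Among naive-range cells 222 of 6714 genes were 2-fold higher in tumor members (3.31%) and 15 lower (0.223%), and 73 of 1789 were higher in normal members (4.08%) and 3 lower (0.168%). Of the 1789 genes tested in both, 62 were 2-fold higher in members in both libraries (3.47%) and 0 were lower (0%). In these cells the antiviral effectors had medians of 2.79 in the tumor library and 2.70 for normal cells on the log2 scale, and 26 of 27 and 15 of 16 genes were 2-fold higher. Of 16 activation genes tested 4 were 2-fold higher in naive-range tumor members, with a median of 0.63, and the naive and homing genes had a median of -0.03. Among effector-range tumor cells 215 of 5817 genes were 2-fold higher (3.7%) and 173 were 2-fold lower (2.97%). Among the 8 effector-range normal members 16 of 497 genes were 2-fold higher (3.22%) and 18 lower (3.62%), and 9 were higher in both libraries (1.81%) and 0 lower (0%). In effector-range tumor members 26 of 28 antiviral effectors were 2-fold higher, with a median of 2.72, while 0 of 20 activation genes were and their median was -0.18. In the 8 effector-range normal members 3 of 6 effectors were 2-fold higher, with a median of 1.07, and of 8 activation genes 0 were higher and 2 lower, with a median of -0.61. Of 12 class I and peptide-loading genes 0 were 2-fold higher and 1 was lower in these 8 cells, and of 3 signalling genes 1 was higher and 1 lower. In the tumor library Isg15 was at 1832 CPM in effector-range members and 140 CPM in effector-range reference cells. It was at 819 CPM in naive-range tumor members and 55.1 CPM in naive-range tumor reference cells. Gzmb was at 375 CPM in effector-range tumor members and 143 CPM in effector-range tumor reference cells, but at 1.84 CPM in naive-range tumor members. Genes that define the ranges are bounded by that choice.

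Naive and homing genes and genes of recent receptor signalling had median ratios near those of all tested genes or below. Of 11 naive and homing genes 0 were 2-fold lower in either library, with medians of -0.43 in tumor and -0.15 in normal members. Lef1, a transcription factor of naive T cells, was at 444 CPM in tumor members and 702 CPM in tumor reference cells, a ratio of 0.632 (0.595 to 0.672), and at 721 and 812 CPM in normal members and reference cells. Of the receptor-signal and immediate early genes 1 of 16 in the tumor library and 0 of 13 for normal cells were 2-fold higher, with medians of -0.02 and -0.07. Nr4a1, which reports antigen receptor signalling, was at 698 CPM in tumor members and 778 CPM in tumor reference cells, and at 479 and 455 CPM in normal members and reference cells. The 8 genes lowest in both libraries were Gm45552, Pdlim4, Ifi27, Sh3bp5, Rflnb, Jun, Dhx40 and Dapl1, and none was 2-fold lower in both. Ifi27 was at 52.7 CPM in tumor members and 118 CPM in tumor reference cells, a ratio of 0.448 (0.373 to 0.533), and at 85.7 and 126 CPM in normal members and reference cells, 0.679 (0.447 to 0.990). Ifi27 thus ran against its relative Ifi27l2a, which was 4.47-fold higher in tumor members and 4.86-fold higher in normal members. Jun, an AP-1 subunit, had ratios of 0.707 (0.660 to 0.756) and 0.723 (0.595 to 0.871).

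Receptors showed a broad repertoire. In the tumor library 366 members had 1 alpha and 1 beta chain, and they carried 360 distinct clonotypes, defined by the V gene, J gene and CDR3 nucleotides of both chains. Of these members 8.74% belonged to a clone with 2 or more kept cells (6.06 to 12.1), against 1.14% of reference cells (0.797 to 1.57). In the normal library the shares were 2.5% of members, 1 of 40 cells, and 3.79% of reference cells (3.25 to 4.40). The expanded tumor members were all in the effector range, where 32 of 121 were expanded (26.4%, 18.8 to 35.2), against 15.8% of effector-range reference cells (11.04 to 21.5), and the intervals overlap. Of 245 naive-range tumor members 0 were expanded, which allows a share of up to 1.22% by the limit of 3 counts of the total, or 1.49% by the Clopper-Pearson interval. With the filter on genes typical of regulatory T cells the expanded shares were 3.17% of tumor members (1.28 to 6.42) and 0.159% of tumor reference cells.

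Most expanded clones held both members and other cells. The 32 expanded tumor members fell into 26 clones, of which 22 also held a cell that was not a member and 7 held a Foxp3-positive cell. A cell that was not a member could have 1 or 2 rule-gene UMIs, or a Foxp3 UMI, which bars it whatever its other UMIs, so the mix says nothing of whether clones respond together. In 4 clones every cell was a member, and no clone held more than 3 members. The beta V genes used by most tumor members were TRBV3 in 9.56% of members and 10.7% of reference cells, TRBV5 in 9.29% and 6.75%, and TRBV19 in 8.74% and 7.92%. The intervals of members and reference cells overlapped for each of these 3 V genes.

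Tumor members and normal members were also compared directly, as a difference between libraries. Of 5354 genes tested 468 were 2-fold higher in tumor members (8.74%) and 61 were 2-fold lower (1.14%), with a median log2 ratio of 0.12 over 7680 genes in members and 0.02 in reference cells. The 8 genes with the highest ratio had 0 or 1 UMI in normal members, and their intervals are wide. Gzmb had 354 UMIs in tumor members and 0 in normal members, at least 14.5-fold higher when the 0 is set to a floor of 3 UMIs for the group, and its ratio in reference cells was 2.16. Tnfrsf9 (4-1BB), a costimulatory receptor, had 200 and 1 UMIs, a ratio of 24.6 (4.36 to 976), and its ratio in reference cells was 7.12. Serpina3g had 167 and 1 UMIs, and Ifi211 126 and 1. Mrps36, Map3k8, Rgs16 and Stx11 made up the 8. Of 20 tested activation genes 12 were 2-fold higher in tumor than in normal members, with a median log2 ratio of 1.27 in members and 0.29 in reference cells. The antiviral effectors had medians of 0.83 in members and 0.53 in reference cells, with 9 of 28 2-fold higher.

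The lowest ratios of tumor over normal members were those of St8sia6, Lmo4, Cmas, Rras2, Cd55, Tmem115, Tubb2a and Prmt3. The direction turned for Cd55 with a threshold of 5 rule-gene UMIs, to a log2 ratio of 1.95, and for Lmo4 in cells of 3000 to 6000 UMIs, to 0.15. St8sia6, a sialyltransferase gene, was at 21.5 CPM in tumor members and 92.1 CPM in normal members, a ratio of 0.233 (0.146 to 0.379), and its ratio in reference cells was 0.587. Cmas, which activates sialic acid, had ratios of 0.345 in members and 0.668 in reference cells. Tubb2a, a beta-tubulin gene, was at 135 CPM in tumor members and 352 CPM in normal members, 0.382 (0.308 to 0.478), and its ratio in reference cells was 0.574. For these 3 genes tumor reference cells also lay below normal reference cells, by less than members did.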

How the data were processed

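The authors deposited a matrix of unnormalized UMI counts for each library, made with Cell Ranger per the submitters' processing notes, on mm10 per the labels, with version 3.1.0 per the file headers. The deposited contig tables gave chains, V and J genes and CDR3 sequences as text, another kind of value than counts per the file headers. How barcodes were called and receptors assembled is not given in the sources used here. Cells with fewer than 500 genes or 10% or more mitochondrial UMIs, or with over 2 productive alpha or over 1 productive beta chain, were left out, which kept 7135 tumor and 7082 normal cells of 7788 and 7745 barcodes. Doublets were removed by these chain limits only, and no doublet caller was run. UMIs were summed per library and group and scaled to CPM. Ratios have exact conditional Poisson intervals, and shares Clopper-Pearson intervals. A group at 0 was set to 3 UMIs. Gene names and coordinates came from RefSeq GRCm38.p6, which matched 30934 of 31053 identifiers. Only the ratios and their intervals were tested on simulated data, with independent Poisson counts and genes changed by known folds. The simulated counts were not clumped by cell as the real ones are, and the other steps were not simulated. Members, gene lists and score genes were chosen with earlier results of these data known. Named genes were the 12 highest and 8 lowest by the smaller of both libraries' log2 ratios, and the 8 highest and 8 lowest of tumor over normal members with at least 50 UMIs in the higher. Receptor, ribosomal, mitochondrial, hemoglobin and sex-linked genes were left out of that choice. Alternatives changed the rule's threshold, depth, filters, scaling and reference. Python 3.11.15, numpy 2.4.6, scipy 1.17.1, pandas 2.3.3 and matplotlib 3.10.9 were used. Results for a few genes are not reported here.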

Additional observations from a re-analysis of the deposited data

How the results depend on the processing

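No paired analysis was possible because each tissue had 1 library and no test was made, and for the same reason no replicate could be left out. The tumor share of members was 12.6% with a threshold of 2 rule-gene UMIs, 5.71% with 5, 5.77% in thinned cells, 6.98% with the filter on genes typical of regulatory T cells and 8.15% in cells of 3000 to 6000 UMIs. The normal share was 1.99% with a threshold of 2, 0.436% with 5 and 0.566% in thinned cells, and the ratio of the shares was 6.32 with a threshold of 2 and 13.1 with 5. The effector-range share of tumor members was 26.9% with a threshold of 2, 10.4% with the filter on genes typical of regulatory T cells, 24.7% at 3000 to 6000 UMIs and 28.1% without members of 20 or more rule-gene UMIs, a setting chosen after seeing the data. That of normal members was 2.86% in thinned cells and 4% with the same filter. The expanded share was 3.17% in tumor members with that filter, and 0% in normal members in thinned cells and with a threshold of 5. Genes 2-fold higher in both libraries numbered 41 in thinned cells, 41 with at least 50 UMIs, 160 with at least 5 UMIs and 123 at 1.5-fold. Genes lower in both numbered 1 with a threshold of 5, 5 with at least 5 UMIs and 2 at 1.5-fold. The antiviral effectors 2-fold higher in normal members numbered 9 in thinned cells. The causes were not tested, beyond the smaller or larger number of cells and genes that a setting leaves by its construction. Of 26 called ratios of named genes under 13 alternatives each, 338 of 338 kept their direction and 332 stayed 2-fold. These 26 were already past 2-fold under the main settings, and most were named for their high ratios in the same cells. Their steadiness was therefore largely set in advance. Over all ratios of members over reference cells of the named genes, 421 values counted as the same and 99 as moved. In the ratios of tumor over normal members, Cd55 turned to 1.95 on the log2 scale with a threshold of 5 and Lmo4 to 0.15 at 3000 to 6000 UMIs. For 4 genes, 7 such values could not be given because normal members were at 0. Median-of-ratios scaling shifted log2 ratios by 0.01 for tumor cells and -0.03 for normal cells. Depth limits normal members most, since their sum holds 315032 UMIs.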

Other observations

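Outside the lists, 21 of the 80 genes that were 2-fold higher in members of both libraries stood on no list, and the following were picked from them after their values were seen. Lgals3bp, a secreted galectin-binding glycoprotein gene, was at 299 CPM in tumor members and 41.9 CPM in tumor reference cells, 7.15-fold (6.46 to 7.90), and 6.92-fold higher in normal members (5.25 to 8.98). Rnf213, a giant ubiquitin ligase gene, was 6.21-fold higher in tumor members and 4.50-fold in normal members. Samhd1, which depletes the nucleotides that retroviruses need, was at 1002 CPM in tumor members and 380 CPM in tumor reference cells, and at 863 and 357 CPM in normal members and reference cells. Adar, the enzyme that edits adenosine in double-stranded RNA, was 2.70-fold higher in tumor members (2.33 to 3.12) and 2.80-fold in normal members (1.85 to 4.09). AW112010, a transcript first annotated as noncoding, was 5.69-fold higher in tumor members (5.38 to 6.02) and 2.51-fold in normal members (2.07 to 3.00).

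Of the genes of cell death and survival 9 of 19 tested were 2-fold higher in tumor members and 1 of 7 in normal members, with medians of 0.97 and 0.06 on the log2 scale. Over all tested genes 5.92% were 2-fold higher in tumor members and 3.93% in normal members, with a median of 0.06 in each library. Among effector-range tumor cells 4 of 19 of the listed genes were higher, with a median of 0.35. Among naive-range tumor cells 3 of 16 were, with a median of 0.36. The lists tested differ by depth, and of the 7 genes tested in both libraries 1 was 2-fold higher in both. Daxx, a histone chaperone gene linked to death receptors and to antiviral silencing, was that gene, at 7.36-fold in tumor members (6.72 to 8.06) and 6.25-fold in normal members (4.78 to 8.05). Casp1, the inflammasome caspase gene, was at 47.6 CPM in tumor members and 6.36 CPM in tumor reference cells, 7.48-fold (5.77 to 9.71), and Casp4 was 6.48-fold higher (4.97 to 8.44). Bcl2 was at 226 CPM in tumor members and 303 CPM in tumor reference cells, a ratio of 0.748 (0.685 to 0.815). The 13 mitochondrially encoded genes were within 2-fold in both libraries, with medians of -0.36 in tumor and -0.09 in normal members.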
